A study of Mus musculus with 24 samples.

Results

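Genes that ERK, the last kinase of the mitogen-activated protein kinase (MAPK) cascade, switches on were followed in mouse prostate organoids and prostate tissue. The set holds 10 named genes of the 35519 genes in the files: the phosphatases Dusp4, Dusp5 and Dusp6, the inhibitors Spry2, Spry4 and Spred1, the transcription factors Etv5, Fosl1 and Egr1, and Phlda1. They were taken by symbol, and all 10 were found and passed the low-count filter in each test. The series asks, by its title, how partial and full loss of Brca1 differ in the answer to androgen deprivation. Organoids are small epithelial structures grown from dissociated gland cells in Matrigel; these came from anterior lobes of 3-month-old mice. Their medium contained EGF, the ligand of the EGF receptor, with Noggin, R-Spondin, the TGF-β receptor inhibitor A83-01 and the ROCK inhibitor Y27632. There were 6 organoid groups of 3 libraries each: KO-labelled (Brca1-/-), HET-labelled (Brca1+/-) and WT-labelled, each without and with dihydrotestosterone (DHT), a potent androgen. Tissue RNA was taken straight from anterior lobes, as 3 groups of 2 libraries with the same KO, HET and WT labels. The labels give no driver of the Brca1 deletion, no age for the tissue donors and no statement that replicates came from separate animals or organoid lines. P-values therefore measure the spread between these samples, which may be technical.

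Receptor tyrosine kinases such as the EGF and FGF receptors load RAS with GTP, and RAS then drives the kinases RAF, MEK and ERK in turn. Active ERK induces transcription factors within minutes, and also its own brakes: phosphatases that strip phosphate from ERK, and Sprouty and Spred proteins that act on RAS and RAF. The RNA of such genes is often read as a record of recent ERK activity, although each gene answers to other inputs as well. In the prostate, EGF and FGF signals act beside androgen on the growth of the epithelium.

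Promoter sequences are shown for the members that moved with DHT, Etv5 and Dusp6, and for Spry2, which differed with the genotype label. Each is the 250 bases before a RefSeq transcript start on build GRCm38.p6, written 5′ to 3′ on the strand of the gene. Capitals mark TGAATG on either strand, the core of the site of capicua, a repressor that ERK signalling relieves. The Dusp6 window is chr10:99262981-99263230, plus strand, and ends at the base before the gene. The Etv5 window is chr16:22438369-22438618, minus strand, and lies in intron 1 of the annotated transcript Etv5-201, before a RefSeq start inside the gene. The Spry2 window is chr14:105896820-105897069, minus strand, and ends at the base before the gene.

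Dusp6: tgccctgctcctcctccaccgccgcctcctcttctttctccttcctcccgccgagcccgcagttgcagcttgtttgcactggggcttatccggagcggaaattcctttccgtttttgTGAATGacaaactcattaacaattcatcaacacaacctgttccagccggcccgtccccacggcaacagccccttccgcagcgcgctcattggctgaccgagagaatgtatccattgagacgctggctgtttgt
Etv5: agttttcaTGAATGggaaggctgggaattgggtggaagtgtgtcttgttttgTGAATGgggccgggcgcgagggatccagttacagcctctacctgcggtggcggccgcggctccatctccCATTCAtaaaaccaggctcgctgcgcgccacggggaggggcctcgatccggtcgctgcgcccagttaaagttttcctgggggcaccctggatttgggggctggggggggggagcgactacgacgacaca
Spry2: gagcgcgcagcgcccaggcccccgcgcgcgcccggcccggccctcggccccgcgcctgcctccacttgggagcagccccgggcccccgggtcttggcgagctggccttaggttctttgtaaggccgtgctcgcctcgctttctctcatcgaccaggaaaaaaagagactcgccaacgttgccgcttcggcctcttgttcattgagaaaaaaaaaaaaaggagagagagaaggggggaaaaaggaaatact

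TGAATG occurred 3 times in the printed Etv5 window, at 242, 198 and 129 bases before the start, and 1 time in the Dusp6 window, at 133 bases. The Spry2 window held none. The second Etv5 window, chr16:22439571-22439820 at the annotated start of Etv5-201, also held none, and is not printed because it overlaps exon 1. RefSeq windows were at hand for 5 of the 10 members, 6 windows in all, and 3 of these held TGAATG, the other being that of Dusp5. Of all 32851 mouse windows of the same length, 10.9% held it. The AP-1 site TGANTCA was in 6.75% of all windows, the ETS site CCGGAAGT in 2.88% and the androgen receptor palindrome in 0.00913%, and none of them was in the 6 member windows. The motifs were searched on both strands and chosen after the sequences had been seen, and a match describes the letters only.

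Depth spanned 11965815 to 58445041 estimated reads over the 24 libraries. The smallest one, WT-labelled organoids plus DHT replicate 1, had 28.0% of its reads on Lars2. Mitochondrial genes took 9.97% of reads in KO-labelled minus DHT replicate 1 and 9.40% in HET-labelled minus DHT replicate 1, against 2.15% to 5.05% in the other organoid libraries. Tissue libraries WT 2 and HET 1 carried seminal vesicle RNA: the secretory genes Svs2, Svs4, Svs5 and Pate4 summed to 178200 and 62870 TPM (transcripts-per-million) there, against 4.83 to 19.4 TPM in the other tissue libraries. Epithelial markers (Epcam, Cdh1, Krt8, Krt18) were present in all libraries, at 2876 to 3811 TPM summed in organoids. Of 6 fibroblast, 4 smooth muscle and 4 endothelial markers, 4, 3 and 3 were under 1 TPM in all organoid libraries, and Col1a1, Dcn, Acta2 and Pecam1 were not. Of 6 leukocyte markers 5 were under 1 TPM there, and with Cd68 the list summed to 55.9 to 120.3 TPM. Brca1 RNA, summed over the gene, averaged 2.59 ± 0.50, 3.59 ± 0.42 and 2.95 ± 0.09 TPM in KO-, HET- and WT-labelled organoids plus DHT (SD, n = 3 each). It thus did not follow the labels. The labels do not say which part of Brca1 was removed, so this sum cannot check them.

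In organoids the 10 genes covered a wide span of levels. Phlda1, whose product has a pleckstrin homology-like domain, was the highest at a median of 369.5 TPM over 18 libraries, with a range of 310.9 to 431.0 TPM. Dusp6, a cytoplasmic phosphatase specific to ERK, had a median of 108.1 TPM. Dusp4, a nuclear phosphatase of ERK and other MAP kinases, had 69.4 TPM, and the zinc finger factor Egr1 had 48.6 TPM. For each of these 4, the share of genes with a lower TPM in the same library had a median of at least 92.1% over the 18 libraries. Spred1, which brings the RAS inhibitor neurofibromin to the membrane, had 18.2 TPM, and Spry2 had 17.7 TPM. Etv5, an ETS transcription factor of the PEA3 group, had 9.38 TPM, and Dusp5, a nuclear ERK phosphatase, had 8.86 TPM. Fosl1, the AP-1 subunit Fra-1, had 6.16 TPM. Spry4 was the lowest, at 2.21 TPM. The highest organoid library exceeded the lowest by 1.39 times for Phlda1, 1.42 times for Egr1, 1.59 times for Dusp6, 2.24 times for Etv5 and 2.58 times for Spry4. The plot of CPM by group shows where that spread lies: between labels for Spry4, between media and labels for Etv5, and in 2 libraries for Fosl1.

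**Figure D1:**
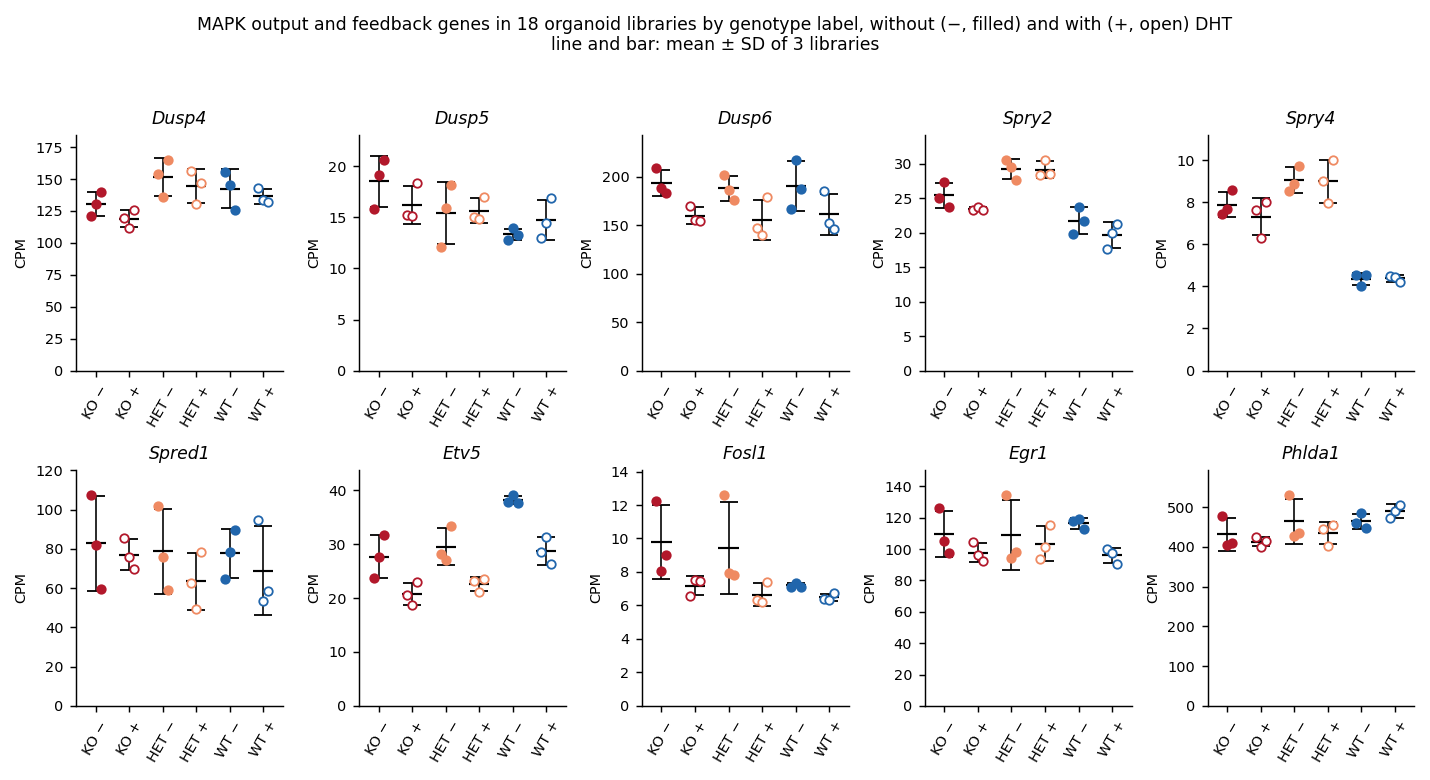
Counts-per-million (CPM, linear axis from 0) of each gene in the 18 organoid libraries. Groups run KO-, HET- and WT-labelled, each minus DHT (filled points) then plus DHT (open points), and the black line and bar are the mean and SD of 3 libraries; Spry4 sits at 6.31 to 10.01 CPM in KO- and HET-labelled libraries and at 4.03 to 4.54 CPM in WT-labelled ones.

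After DHT withdrawal, Etv5 and Dusp6 were the 2 members that rose when the withdrawal change was averaged over the 3 labels. They were 2 of 10 members called at an adjusted p under 0.05 (edgeR quasi-likelihood test over all genes), both higher, against 2.56% of all 15427 genes called higher and 4.96% called in either direction. All 10 members had a log2 change above 0, with a median of 0.13, against 0.02 over all genes. Some of these signs were not stable. Dusp5 kept its sign in 16 and Phlda1 in 23 of 27 other settings or left-out libraries. With the mitochondrial share of reads as a covariate, Phlda1 was at -0.036 and Spred1 at -0.015.

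Etv5 had 23.7, 27.6 and 31.7 CPM in KO-labelled organoids minus DHT, against 20.6, 18.7 and 22.9 CPM plus DHT. In HET-labelled organoids it had 28.1, 27.0 and 33.4 CPM minus DHT, against 23.2, 21.2 and 23.5 CPM plus DHT. In WT-labelled organoids the values were 37.9, 39.1 and 37.6 CPM minus DHT, against 28.5, 31.4 and 26.3 CPM plus DHT. Within each label all 3 libraries without DHT lay above all 3 with DHT, by the least margin in the KO label. The log2 changes were 0.42 (SE 0.12), 0.38 (SE 0.12) and 0.41 (SE 0.12) in KO, HET and WT labels, and 0.40 (SE 0.07) on average, with an adjusted p of 0.00188 by edgeR. That average kept its call under each of 27 other settings or left-out libraries, with log2 changes of 0.37 to 0.46. The gene lies on the minus strand at chr16:22381309-22439719 (GRCm38). By the submitters' Salmon estimates the transcript Etv5-201 made up 96.2% to 100% of its TPM in the 9 libraries minus DHT and 67.8% to 100% in the 9 plus DHT, where Etv5-203 took up to 32.2%.

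Dusp6 followed the same direction with more spread. It had 209.0, 188.9 and 183.5 CPM in KO-labelled organoids minus DHT, against 169.9, 155.3 and 154.7 CPM plus DHT. HET-labelled organoids gave 202.1, 186.3 and 176.2 CPM minus DHT, against 147.2, 139.6 and 179.0 CPM plus DHT. WT-labelled organoids gave 166.6, 217.5 and 187.6 CPM minus DHT, against 185.2, 152.8 and 146.1 CPM plus DHT. The groups stood apart in the KO label and overlapped in the HET and WT labels, each through a single library plus DHT. The average log2 change was 0.27 (SE 0.07, adjusted p = 0.0412, edgeR). This call was near the threshold. It was kept when HET plus 3, HET minus 3, KO minus 3, WT plus 1 or WT minus 1 was left out and lost without any of the other 13 organoid libraries, at adjusted p-values of 0.0582 to 0.105 (edgeR). With the DESeq2 size factors the adjusted p was 0.0527 (edgeR), and without a low-count filter 0.0598. With effective length offsets it was 0.0776 and with the replicate block 0.1445 (both edgeR), and in limma on log2 TPM 0.13. Counting settings and left-out libraries, 9 of 27 alternatives kept the call. Over the 18 organoid libraries Dusp6 had a Pearson r of 0.58 with the mitochondrial share of reads, and 0.52 within groups. With that share as a covariate the change was 0.21 (adjusted p = 0.0289, edgeR). Without the 3 smallest organoid libraries it was 0.26 (adjusted p = 0.0411, edgeR). The gene lies at chr10:99263231-99267489 on the plus strand.

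Fosl1 was higher without DHT in every library of each label, yet its average change missed the threshold (log2 change 0.36, SE 0.11, adjusted p = 0.0636, edgeR). It had 12.3, 8.05 and 8.99 CPM in KO-labelled organoids minus DHT, against 6.54, 7.54 and 7.46 CPM plus DHT. HET-labelled organoids had 12.6, 7.92 and 7.81 CPM minus DHT, against 6.34, 6.18 and 7.41 CPM plus DHT. WT-labelled organoids had 7.12, 7.34 and 7.13 CPM minus DHT, against 6.41, 6.34 and 6.72 CPM plus DHT. The highest values, 12.6 and 12.3 CPM, came from replicate 1 of the HET and KO labels minus DHT, the libraries with 9.40% and 9.97% mitochondrial reads. Leaving out the 3 smallest organoid libraries, which include both, gave a log2 change of 0.21 (adjusted p = 0.0954, edgeR). With the mitochondrial share as a covariate it was also 0.21 (adjusted p = 0.0450, edgeR). The full set of libraries passed in DESeq2 (adjusted p = 0.0284), and in edgeR without HET minus 3 (0.40, adjusted p = 0.0378).

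Egr1, an immediate early gene, showed the same 2 libraries on top. It had 126.1, 104.9 and 97.8 CPM in KO-labelled organoids minus DHT, against 104.4, 96.1 and 92.4 CPM plus DHT, and the ranges overlapped. In HET-labelled organoids the values were 134.4, 94.2 and 97.9 CPM minus DHT, against 93.8, 101.2 and 115.6 CPM plus DHT. In WT-labelled organoids, where no library had such a mitochondrial share, all 3 libraries minus DHT, at 117.8, 119.2 and 112.6 CPM, lay above the 3 plus DHT, at 99.8, 97.6 and 90.6 CPM. The average log2 change was 0.17 (SE 0.08, adjusted p = 0.272, edgeR). It was 0.08 without the 3 smallest libraries and 0.07 with the mitochondrial covariate.

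**Figure D2:**
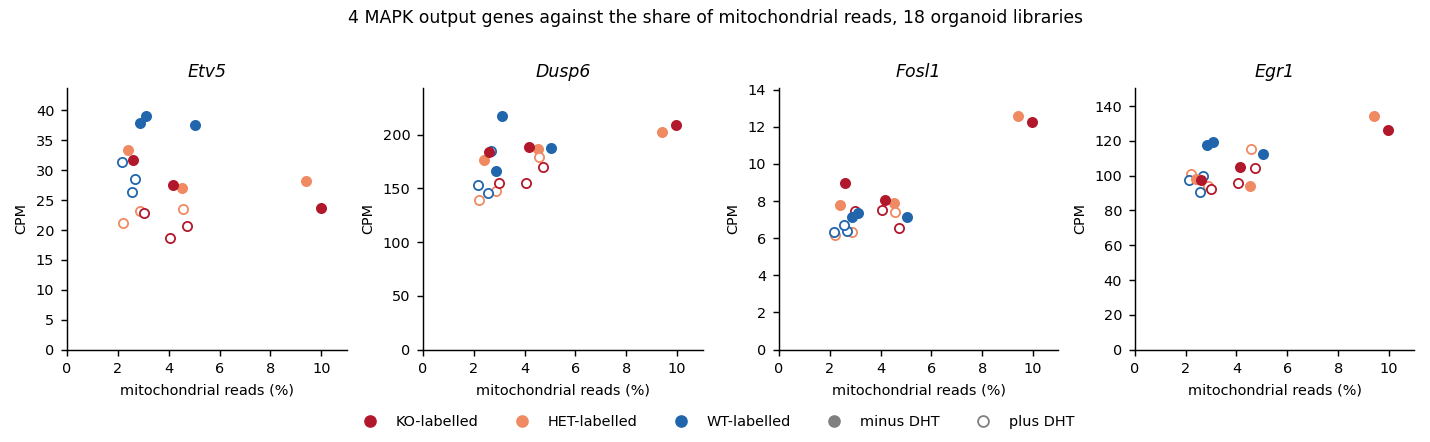
CPM of Etv5, Dusp6, Fosl1 and Egr1 (linear axes from 0) against the percentage of reads on mitochondrial genes in the 18 organoid libraries, minus DHT filled and plus DHT open. The libraries at 9.40% and 9.97% hold the highest Fosl1 and Egr1 values, while Etv5 was at 28.1 and 23.7 CPM there and at 27.0 to 39.1 CPM in the other libraries minus DHT. Dusp6 was at 202.1 and 209.0 CPM there, the highest of their labels, and spanned 166.6 to 217.5 CPM over all libraries minus DHT.

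Taken label by label, no member was called after withdrawal in edgeR, against 0.557%, 0.707% and 1.30% of genes in the KO, HET and WT labels. At an unadjusted p under 0.05 there were 3, 3 and 2 members, among them Etv5 in each label, against 1085, 1295 and 1245 of 15427 genes. DESeq2 called 1, 0 and 1 members, which was Etv5, and its share over all genes is not given here. Groups stood apart upwards for 3, 2 and 3 of the 10 members in the KO, HET and WT labels, against 5.63%, 5.91% and 7.25% of all genes, and downwards for 0, against 6.28%, 6.25% and 6.37%. The members apart were Etv5 and Fosl1 in each label, Dusp6 in the KO label and Egr1 in the WT label. Member medians were 0.15, 0.08 and 0.14 on the log2 scale, against 0.03, 0.02 and 0.01 over all genes.

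The withdrawal changes were not shown to differ between labels. No member and no gene (0% of 15427) passed in the 3 tests of the difference by edgeR, and no member did so at an unadjusted p under 0.05 or in DESeq2. At an unadjusted p under 0.05 there were 417, 151 and 433 genes for KO minus WT, KO minus HET and HET minus WT. For Etv5 the differences were 0.01 (SE 0.17), 0.03 (SE 0.17) and -0.03 (SE 0.17) on the log2 scale. The widest difference among members was that of Fosl1 between the HET and WT labels, at 0.35 (SE 0.26).

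The other 6 members gave averages of 0.01 to 0.20. Spred1 had 0.20 with an SE of 0.15, the largest error among members: its 3 KO-labelled libraries minus DHT ranged from 59.3 to 107.4 CPM. Dusp4, Spry2, Spry4, Phlda1 and Dusp5 had 0.09, 0.09, 0.04, 0.03 and 0.01, with adjusted p-values of 0.525 to 0.986 (edgeR). For Dusp5 the labels differed in sign, at 0.19, -0.02 and -0.15 in KO, HET and WT organoids, with an SE of 0.15 each.

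**Figure D3:**
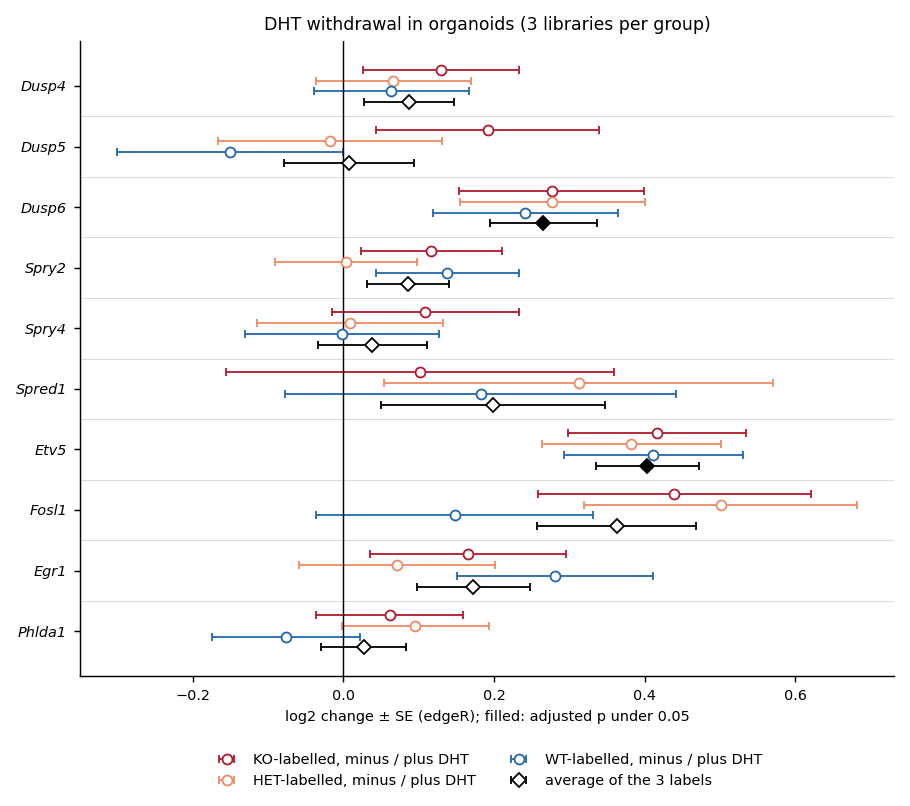
Log2 change after DHT withdrawal (minus over plus DHT, edgeR) with its SE for each gene, in KO-, HET- and WT-labelled organoids and as their average; filled symbols passed an adjusted p of 0.05. The filled ones are the averages of Etv5 (0.40) and Dusp6 (0.27), and the 3 labels of Etv5 lie between 0.38 and 0.42.

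Among other pathway genes 8 of 75 tested (10.7%) were called in the average withdrawal contrast, against the 4.96% of all genes. Of 19 core cascade genes (adaptors, RAS, RAF, MEK and ERK genes and the RAS inactivators Nf1 and Rasa1) none was called by edgeR, on average or within a label. At an unadjusted p under 0.05 there were 2 on average, against 2378 of 15427 genes, and 0 within each label. Of 14 tested ligands and receptors, Fgfr1 rose (log2 change 0.51, SE 0.12) and Erbb3 fell (-0.23, SE 0.06). Of 13 other feedback inhibitors, Spry1 (0.29, SE 0.08) and Il17rd (0.32, SE 0.08), an FGF pathway inhibitor, rose. Of 21 other ERK-responsive transcription factors, Egr3 rose by 0.89 (SE 0.16), Ets1 rose by 0.21 (SE 0.05) and Atf3, which stress also induces, was lower (-0.48, SE 0.11). Of 8 other ERK-induced genes, the cyclin Ccnd1 rose by 0.19 (SE 0.05). Egr3 averaged 9.59 ± 2.21, 9.81 ± 4.71 and 10.1 ± 0.73 CPM minus DHT in KO-, HET- and WT-labelled organoids, against 5.90 ± 0.75, 4.77 ± 1.05 and 5.31 ± 0.71 CPM plus DHT (SD, n = 3). All these adjusted p-values lay between 0.00273 and 0.0372 (edgeR).

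Markers of the epithelial types were read in the same contrast. All 4 basal markers (Krt5, Krt14, Krt15, Trp63) had changes above 0 and none was called by edgeR (1 at an unadjusted p under 0.05), with summed levels of 2192 to 3942 TPM minus DHT and 2076 to 2926 TPM plus DHT. Of 5 luminal markers 2 fell, among them the androgen target Tmprss2 (log2 change -0.38, SE 0.07, adjusted p = 0.00248, edgeR), and the sums over the luminal list were 1409 to 2415 TPM minus DHT and 1294 to 2050 TPM plus DHT. Of 11 handling and immediate early genes, Dnajb1 and Atf3 fell, and none rose. The part of cell type composition in the Etv5 and Dusp6 changes was not tested. In bulk RNA, more cells of a type and more RNA per cell cannot be told apart.

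The Sprouty genes and Etv5 differed with the genotype label, in opposite directions. In KO- against WT-labelled organoids Spry4 rose and Etv5 fell in both media, and in HET- against WT-labelled organoids Spry4 and Spry2 rose in both media. With DHT these were 2 of 10 members in each contrast, against 4.11% of genes for KO against WT and 7.51% for HET against WT, with 4.03% of genes higher. Without DHT they were also 2 of 10, against 4.80% and 7.81%, with 4.52% of genes higher in HET. The contrasts share their WT-labelled libraries within a medium, so their values are given side by side and are not independent.

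Spry4 had 7.63, 6.31 and 8.02 CPM in KO-labelled and 9.01, 7.97 and 10.01 CPM in HET-labelled organoids plus DHT, against 4.50, 4.45 and 4.19 CPM in WT-labelled ones. Minus DHT it had 7.43, 7.66 and 8.57 CPM in KO-labelled and 8.53, 8.87 and 9.74 CPM in HET-labelled organoids, against 4.54, 4.03 and 4.53 CPM in WT-labelled ones. No KO- or HET-labelled library reached down to a WT-labelled one. With DHT the log2 change was 0.74 (SE 0.13, adjusted p = 0.00218, edgeR) for KO against WT. For HET against WT it was 1.04 (SE 0.13, adjusted p = 8.9e-05, edgeR). Minus DHT the changes were 0.85 (SE 0.13, adjusted p = 5.12e-04, edgeR) and 1.05 (SE 0.13, adjusted p = 5.62e-05, edgeR). These 4 calls held under 28 other settings each, except KO against WT minus DHT when the fit used only the groups compared (log2 change 0.86, adjusted p = 0.0550, edgeR). The values rest on 40 to 611 reads per library.

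Spry2, at chr14:105891947-105896819, had the HET-labelled organoids highest. It had 23.2, 23.8 and 23.3 CPM in KO-labelled and 28.3, 30.5 and 28.5 CPM in HET-labelled organoids plus DHT, against 17.7, 20.0 and 21.3 CPM in WT-labelled ones. Minus DHT it had 25.1, 27.3 and 23.8 CPM in KO-labelled and 30.5, 29.6 and 27.6 CPM in HET-labelled organoids, against 19.8, 23.7 and 21.7 CPM in WT-labelled ones. The 3 labels did not overlap within either medium, with KO between HET and WT. The HET against WT changes were 0.56 plus DHT (SE 0.10, adjusted p = 0.00155, edgeR) and 0.43 minus DHT (SE 0.09, adjusted p = 0.00898, edgeR). The second was lost without WT minus DHT replicate 1 (0.37, adjusted p = 0.0572, edgeR). KO against WT gave 0.25 plus DHT and 0.23 minus DHT, with adjusted p-values of 0.224 and 0.252 (edgeR).

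Etv5 was lower in KO-labelled than in WT-labelled organoids by 0.47 plus DHT (log2 change -0.47, SE 0.12, adjusted p = 0.0345, edgeR) and to the same extent minus DHT (-0.46, SE 0.12, adjusted p = 0.0331, edgeR). The HET-labelled values were also all below the WT-labelled ones in each medium, with changes of -0.34 plus DHT and -0.37 minus DHT that missed the threshold (adjusted p = 0.105 and 0.0711, edgeR). Both passed in DESeq2 (adjusted p = 0.0482 and 0.0223) and with the mitochondrial covariate (adjusted p = 0.0305 and 0.0352, edgeR), and minus DHT also without HET minus 3, KO minus 1 or KO minus 3. In the order of group means WT minus DHT stood apart at 38.2 CPM. HET minus, WT plus and KO minus overlapped at 29.5, 28.7 and 27.7 CPM, and HET plus and KO plus overlapped below them at 22.6 and 20.7 CPM. The KO calls rested on single libraries. Plus DHT the call was lost without KO plus 1, KO plus 2, WT plus 1, WT plus 2, WT minus 2 or HET plus 1 (adjusted p = 0.0504 to 0.183, edgeR), and minus DHT without any of the 3 WT minus libraries, KO minus 1, KO minus 2 or KO plus 1 (0.0507 to 0.139). The changes without those libraries were -0.47 to -0.40 plus DHT and -0.46 to -0.36 minus DHT.

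**Figure D4:**
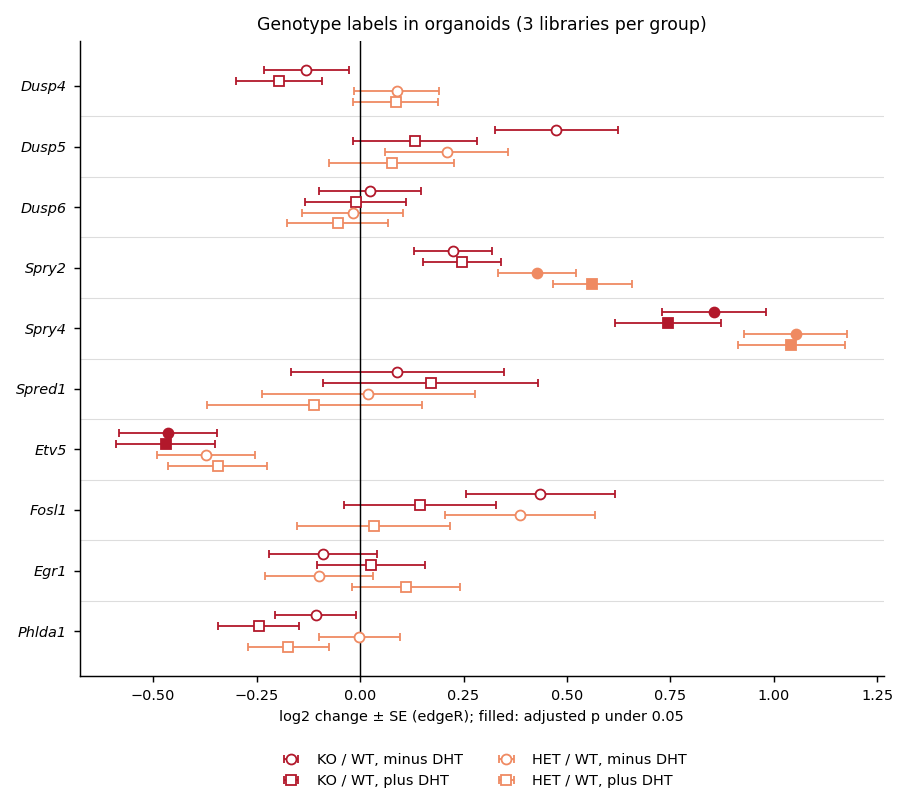
Log2 change with SE (edgeR) for KO over WT and HET over WT labels in organoids minus DHT (circles) and plus DHT (squares); filled symbols passed an adjusted p of 0.05. Spry4 lies at 0.74 to 1.05 in the 4 contrasts, Spry2 at 0.23 to 0.56 and Etv5 at -0.47 to -0.34, while Dusp6 stays between -0.05 and 0.02.

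Among the remaining members no genotype change passed in edgeR with all libraries and without a covariate or replicate block, though several groups stood apart. Phlda1 plus DHT had 424.4, 399.9 and 415.2 CPM in KO-labelled and 444.3, 402.4 and 455.5 CPM in HET-labelled organoids, against 471.2, 491.0 and 506.2 CPM in WT-labelled ones, with adjusted p-values of 0.250 and 0.379 (edgeR). With the mitochondrial covariate both Phlda1 changes passed, at -0.30 for KO (adjusted p = 0.00975, edgeR) and -0.20 for HET (adjusted p = 0.0475, edgeR). Fosl1 minus DHT was higher in every KO- and HET-labelled library than in the WT-labelled ones (log2 changes 0.44 and 0.39, adjusted p = 0.249 and 0.263, edgeR), with the high mitochondrial libraries again on top. Dusp5 minus DHT had 15.8, 19.1 and 20.6 CPM in KO-labelled organoids, against 12.8, 13.9 and 13.3 CPM in WT-labelled ones (0.47, SE 0.15, adjusted p = 0.0930, edgeR). This change passed in DESeq2 (adjusted p = 0.0209), and in edgeR without the 3 smallest libraries (adjusted p = 0.00943) or HET minus 1 (0.0414). With all libraries it also passed in edgeR with the mitochondrial covariate (0.57, adjusted p = 0.00267) and with the replicate block (0.46, adjusted p = 0.0186). Plus DHT the groups stood apart upwards for 2 and downwards for 3 members in KO against WT, against 12.3% and 11.9% of genes. For HET against WT they did so for 2 upwards and 2 downwards, against 15.0% and 14.1%. Minus DHT there were 4 and 1 members in KO against WT, against 8.73% and 8.28% of genes, and 3 and 1 in HET against WT, against 10.2% and 10.1%. Dusp6, Spred1 and Egr1 overlapped between labels in all 4 contrasts, and member medians were 0.05 to 0.08.

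KO- and HET-labelled organoids were not separated by any member in edgeR, against 3.54% of genes plus DHT and 2.92% minus DHT. At an unadjusted p under 0.05 there were 3 members plus DHT (Dusp4, Spry2, Spry4) and 1 minus DHT (Spry2), against 2175 and 1845 of 15427 genes. The 1 member minus DHT was thus no more than the share over all genes. DESeq2 called 1 and 0 members. All 3 KO-labelled libraries were below all 3 HET-labelled ones for Spry2 in both media and for Dusp4 plus DHT, so 2 and 1 members stood apart downwards, against 15.6% and 6.07% of genes. Upwards 0 members did so, against 15.5% and 6.03%. The Spry2 change was -0.31 plus DHT (SE 0.09, adjusted p = 0.0867, edgeR) and -0.20 minus DHT (SE 0.09, adjusted p = 0.410, edgeR). The change plus DHT passed in DESeq2 (adjusted p = 0.0130) and when the 3 smallest libraries were left out (adjusted p = 0.0448, edgeR). Dusp4 plus DHT had 119.6, 111.9 and 125.7 CPM in KO-labelled organoids, against 156.6, 130.5 and 147.2 CPM in HET-labelled ones (-0.28, SE 0.10, adjusted p = 0.187, edgeR).

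Some receptor genes fell with the genotype label, and no core cascade gene was called. KO against WT called 3 of 75 pathway genes (4%) plus DHT and 7 (9.33%) minus DHT, against 4.11% and 4.80% of all genes. For HET against WT there were 5 (6.67%) and 8 (10.7%), against 7.51% and 7.81%. Plus DHT both shares were thus near those of all genes. KO against HET called 6 (8%) and 4 (5.33%), against 3.54% and 2.92%. None of the 19 core cascade genes was called in the 6 genotype contrasts of organoids in edgeR. At an unadjusted p under 0.05 there were 0 or 1 in each, against 1845 to 2908 of 15427 genes. In KO against WT, Erbb3 and Fgfr3 fell in both media (Erbb3 -0.38 and -0.57, Fgfr3 -0.99 and -1.25, plus and minus DHT), and Fgfr2 fell minus DHT (-0.36). In HET against WT, Fgfr2 fell in both media (-0.38 and -0.56), and Erbb3 (-0.43) and Fgfr1 (-0.74) fell minus DHT. Fgfr2, an FGF receptor gene, averaged 199.0 ± 1.24 CPM in KO-labelled and 163.2 ± 13.0 CPM in HET-labelled organoids plus DHT, against 212.7 ± 3.96 CPM in WT-labelled ones (SD, n = 3). Among other feedback inhibitors the EGF receptor inhibitor Errfi1 rose in HET against WT (0.44 and 0.39), where Spred3 fell (-0.79 and -0.64), and the ERK phosphatase Dusp7 fell in KO against WT (-0.66 and -0.50). Dusp1 fell in KO against WT minus DHT (-0.77). Of other ERK-responsive factors, Elk3 and Myc fell in HET against WT plus DHT and Jun, Fosl2 and Ets2 minus DHT, by 0.27 to 0.45, and Atf3 fell in KO against WT minus DHT. Among the other ERK-induced genes only Ccnd1 passed, higher in KO against WT minus DHT (0.36). Adjusted p-values of these calls were 9.8e-05 to 0.0432 (edgeR). Between KO- and HET-labelled organoids Spred3 was higher (0.89 and 0.75) and Dusp7 (-0.54 and -0.46), Errfi1 (-0.46 and -0.47) and Atf3 (-0.77 and -0.78) lower, plus and minus DHT, and Fgfr2 was higher (0.29) and Dusp1 lower (-0.89) plus DHT.

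Cell type markers also differed between labels. The basal keratin Krt14 was lower (-0.74) and the luminal keratin Krt18 higher (0.50) in HET- against WT-labelled organoids plus DHT, 1 of 4 basal and 1 of 5 luminal markers. Basal markers summed to 2596 to 2812, 2076 to 2320 and 2093 to 2926 TPM in KO-, HET- and WT-labelled organoids plus DHT, and luminal ones to 1792 to 2001, 1918 to 2050 and 1294 to 1689 TPM. Dcn was lower in HET- against WT-labelled organoids, and Acta2 higher in KO- against WT-labelled ones in both media, although Myh11, Des and Cnn1 stayed under 1 TPM. Minus DHT, 1 of 5 luminal markers was called in each of KO and HET against WT, with Tmprss2 lower in KO, and of 11 handling and immediate early genes Jun and Btg2 were lower in HET and Atf3 and Zfp36 in KO. The part of these markers in the Spry2, Spry4 and Etv5 differences was not tested.

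In anterior lobe tissue no member was called between labels by edgeR, and neither was any of 16753 genes (0% in the 3 contrasts). At an unadjusted p under 0.05 there were 321, 97 and 457 genes and 1, 1 and 0 members for KO against WT, KO against HET and HET against WT. The member was Egr1, and DESeq2 called it in KO against WT. The share of all genes that DESeq2 called there is not given here, so this call has no background beside it. With 2 libraries a group the spread was wide. Egr1 had 60.8 and 52.4 CPM in KO-labelled and 23.5 and 22.9 CPM in HET-labelled tissue, against 21.5 and 12.8 CPM in WT-labelled tissue. Both KO-labelled libraries lay far above the other 4, with log2 changes of 1.72 (SE 0.34) over WT and 1.29 (SE 0.34) over HET. For KO against WT the adjusted p was 1 by edgeR and 0.0229 by DESeq2. Without WT 2 and HET 1, which held seminal vesicle RNA, the change over WT was 1.41, and it rested on a single WT-labelled library. The 11 handling and immediate early genes, which respond to dissection, summed to 394 to 423, 410 to 438 and 350 to 475 TPM in KO-, HET- and WT-labelled tissue, and their part in the Egr1 values was not tested.

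Etv5, Dusp4 and Phlda1 each had 1 or 2 tissue libraries far from the rest. Etv5 had 3.15 and 3.07 CPM in KO-labelled and 7.35 and 2.69 CPM in HET-labelled tissue, against 2.38 and 14.4 CPM in WT-labelled tissue. The high values were HET 1 and WT 2. The change for KO against WT was -1.43 with all libraries and 0.40 without those 2, which left a single WT-labelled library. Dusp4 had its highest values in the same 2 libraries, 15.1 CPM in HET 1 and 17.99 CPM in WT 2, against 3.74 to 10.3 CPM in the other 4. Phlda1 had 222.8 and 213.4 CPM in KO-labelled and 125.6 and 206.9 CPM in HET-labelled tissue, against 200.2 and 23.3 CPM in WT-labelled tissue, the lowest being WT 2. Upwards, 4 members stood apart for KO against WT (Egr1, Dusp6, Phlda1, Fosl1), against 16.4% of genes. There were 4 for KO against HET (Egr1, Dusp5, Spry4, Phlda1), against 11.2%, and 1 for HET against WT (Egr1), against 11.8%. Downwards, 1 member did so, Spry4 for HET against WT, against 12.4%. No member did so for KO against WT or KO against HET, against 14.9% and 10.6% of genes. Spry4 was nearly level, at 2.27 and 2.72 CPM in KO-labelled and 2.02 and 2.22 CPM in HET-labelled tissue, against 2.46 and 2.93 CPM in WT-labelled tissue.

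All 10 members were lower in tissue than in organoids plus DHT. That comparison called 75.4% of the 17626 genes tested, with 33.3% of those tested lower, and the member median of -1.89 stood beside 0.19 over all genes. In 9 of 10 members all 6 tissue libraries were below all 9 organoid libraries, against 21.2% of genes; Dusp5 overlapped. In edgeR Fosl1 had the largest change: it was at 0.03 to 0.43 TPM in tissue, on 1 to 22 reads per library, against 4.66 to 6.74 TPM in organoids (log2 change -5.42, SE 0.39). Dusp4 followed at 1.98 to 9.52 TPM in tissue, against 58.4 to 80.4 TPM in organoids (-4.05, SE 0.39), and Dusp6 at 3.51 to 21.9 TPM, against 90.9 to 113.5 TPM (-3.56, SE 0.23). Etv5 was at 0.89 to 4.20 TPM, against 6.74 to 11.4 TPM (-2.47, SE 0.34), and Egr1 at 4.76 to 30.2 TPM, against 41.7 to 51.5 TPM (-2.05, SE 0.12). Phlda1, Spry4 and Spred1 had -1.72, -1.69 and -1.69, and Dusp5 and Spry2 the smallest differences, at -1.02 and -0.96. The largest adjusted p among the 10 was 6.0e-04 (edgeR), and all 10 calls held under each alternative. With limma on log2(TPM + 1) the Fosl1 change was -2.50, below those of Dusp4 (-3.70) and Dusp6 (-3.29) in size, and that of Spry4 was -0.78.

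Most other pathway genes were lower in tissue as well. Of 77 tested, 70 (90.9%) were called in either direction, against 75.4% of all genes. In tissue 20 of 21 other ERK-responsive transcription factors were lower and none higher, with Etv4 (-5.12), Egr3 (-4.01) and Ier3 (-3.38) in front by p. Of 14 other feedback inhibitors 11 were lower, among them Dusp7 (-2.60), Dusp9 (-3.43) and Lrig1 (-2.50), and 1 was higher, Dusp2. Of 8 other ERK-induced genes 7 were lower, with Hmga2 at -8.66. Of 15 ligands and receptors 11 were lower, including Epgn (-5.84), Hbegf (-3.31) and Fgfr3 (-3.06), while 4 were higher: Egf, Erbb2, Erbb4 and Fgfr1, named after their values were seen. Core cascade genes moved less, 5 higher and 11 lower of 19, with a median of -0.33. The adjusted p-values of these calls were at most 0.0451 (edgeR).

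Cell type markers also differed between tissue and organoids. In tissue all 6 fibroblast, all 4 smooth muscle and all 4 endothelial markers were higher, at 144.5 to 285.9, 205.7 to 2006 and 27.1 to 32.6 TPM summed in tissue, against 6.11 to 32.7, 0.11 to 4.74 and 1.24 to 7.46 TPM in organoids. Of 5 tested leukocyte markers 4 were higher in tissue and Cd68 was lower, and the leukocyte sums were 15.8 to 72.3 TPM in tissue, against 55.9 to 120.3 TPM in organoids. Of 4 basal markers 3 were lower in tissue, with sums of 111.7 to 1691 TPM in tissue and 2076 to 3942 TPM in organoids. These organoid sums, for every marker list here, cover all 18 libraries, while the calls used the 9 plus DHT. Plus DHT the basal sums were 2076 to 2926 TPM. Of 11 handling and immediate early genes 9 were lower. The part of these differences in the member changes was not tested, and culture, cell makeup and preparation cannot be told apart here. Without WT 2 and HET 1, all 10 members were still called lower.

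Genes with the pattern most like the mean of the 10 members over the 18 organoid libraries were sought among 10288 genes. The mean was taken of standardised log2 CPM, so each member counted alike. The nearest were Trib2, a pseudokinase gene, with a Pearson r of 0.89, Arsb, a lysosomal sulfatase gene (0.88), Celf4, an RNA-binding protein gene (0.88), Sox2, a transcription factor gene (0.87), and Zc3h12d (0.86). These are descriptions over libraries that share media, labels and depth. The mean itself was highest in the libraries with the most mitochondrial reads among HET- and KO-labelled organoids minus DHT, at 1.10 and 0.67 SD, and was below 0 in 8 of the 9 libraries plus DHT.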

How the data were processed

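RNA was extracted with a PureLink kit and sequenced on an Illumina instrument, per the labels' protocols. The authors deposited 1 transcript table per library with estimated counts and TPM; the submitters' processing notes name Salmon 0.13.1 and build hg38, although the transcript IDs are mouse. The annotation behind the index and the strand setting are not given in the sources used here. Estimated counts were summed per gene with GENCODE mouse release 21 and rounded, and TPM summed likewise; 922 of 116945 transcripts (0.228% to 0.327% of reads) had no gene and were left out. Without strand, a gene and its antisense partner cannot be told apart. Genes were tested with edgeR 4.0.16 (quasi-likelihood, TMM, filterByExpr, Benjamini-Hochberg adjustment over all genes tested, threshold 0.05) in R 4.3.3: 18 organoid, 6 tissue, and 15 tissue and organoid plus DHT libraries in separate fits. CPM values in text on organoids and on tissue come from these fits. Salmon counts carry estimation error that the tests do not see. The test was checked on simulated data. Alternatives used DESeq2 1.42.0 and limma 3.58.1 (log2 of TPM plus 1), other filters, scalings and covariates, and left-out libraries; 2 of them were chosen after seeing the data. Shares of all genes called are those of the main edgeR fits throughout, and none is given for the alternatives. The members, pathway lists and marker lists were chosen with earlier results of these data known. Named genes are all members and up to 3 called genes with the lowest p per list and comparison, and the 5 genes most like the mean of the members. The results of 1 luminal marker are not reported here.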

Additional observations from a re-analysis of the deposited data

Results flagged for a closer look

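Spry4 in HET against WT labels had opposite directions in tissue and organoids, with no overlap between the groups in either. The log2 change was -0.34 in tissue (2 libraries a group), against 1.04 in organoids plus DHT and 1.05 in organoids minus DHT (3 libraries a group). In tissue the ranges were close, at 2.02 to 2.22 CPM in HET-labelled and 2.46 to 2.93 CPM in WT-labelled libraries. There 12.4% of genes stood apart downwards. The tissue groups include HET 1 and WT 2, the libraries with seminal vesicle RNA. The difference between tissue and organoids was not tested.

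Phlda1 in KO against WT labels likewise had opposite directions, at 0.96 in tissue and -0.24 in organoids plus DHT, with no overlap in either. This difference was not tested, and the tissue value includes WT 2, the library with the most seminal vesicle RNA, where Phlda1 was 23.3 CPM.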

How the results depend on the processing

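Numbers of members called stayed within 1.5 times in 376 alternative counts and moved further in 51, and no called member change turned its sign. In most of the 17 comparisons edgeR called 0 members, and each 0 that stayed 0 is among the 376. The 376 thus say little about how stable the calls are. Within single labels, where edgeR called 0 after withdrawal, DESeq2 called 1 in KO and 1 in WT, and the mitochondrial covariate 1 in each of KO, HET and WT, each time Etv5. The average withdrawal count of 2 became 1 (Etv5) with DESeq2 size factors, no low-count filter, effective length offsets, limma on log2 TPM or the replicate block, and 1 to 3 with single libraries left out. KO against WT plus DHT, at 2, became 1 (Spry4) without the filter, with length offsets or in limma, and 1 to 2 with libraries left out. KO against WT minus DHT, at 2, became 1 in the same 3 settings, 0 with only the groups compared, 3 with the replicate block and 1 to 3 with libraries left out. HET against WT, at 2, became 4 plus DHT with the mitochondrial covariate; minus DHT it became 1 in limma or with only the groups compared and 1 to 3 with libraries left out. KO against HET plus DHT, at 0, became 1 (Spry2) in DESeq2, with the mitochondrial covariate, with only the groups compared and without the 3 smallest libraries. KO against WT in tissue, at 0, became 1 (Egr1) in DESeq2. The causes were not tested. Same-numbered libraries did not deviate together throughout: correlations of their deviations were -0.549 to 0.484 for withdrawal pairs (median -0.04), -0.725 to 0.853 for genotype pairs of organoids (median 0.04; the highest were HET and KO minus 3 and minus 1, at 0.853 and 0.788) and -0.186 to 0.485 in tissue. Organoid genotype pairs with different numbers had -0.808 to 0.653. The labels give these libraries a number only, and what lies behind the high values was not tested. In tissue, with 2 libraries a group, deviations mirror each other, so that range cannot decide whether same-numbered libraries belong together. The replicate block left the other counts unchanged. Tissue counts rest on 2 libraries a group, and Fosl1 in tissue on 1 to 22 reads.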
